A study of Mus musculus with 6 samples.

Results

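Pla1a, Pla2g4a, Pla2g6, Pla2g7, Pla2g15, Plbd1, Plbd2 and Lpcat2 encode enzymes that cut fatty acids from membrane phospholipids, or, for Lpcat2, put one back. These 8 genes of the 45777 in the deposited count table were chosen by symbol, after their read counts in the PGE2 and vehicle libraries were known. Their differences between the groups are therefore described and carry no test of their own. All 8 had at least 10 reads in each of the 6 libraries, so none was measured through a single group.

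The cells were bone marrow neutrophils of wild type mice of the strain C57BL/6, prepared on a Percoll gradient. They were kept for 24 h with 10 µM PGE2, or with the vehicle, DMSO. There were 3 libraries per group, named as biological replicates in the series design. The sources used here do not say whether each library came from 1 mouse or a pool, and the p-values below measure the spread between these libraries.

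Phospholipids carry a pair of fatty acids on a glycerol backbone. Phospholipases A remove a fatty acid from this backbone and leave a lysophospholipid, which has its own receptors or is acylated again in the Lands cycle. Where the fatty acid released is arachidonic acid, it feeds the making of prostaglandins, PGE2 among them, and of leukotrienes. Activated neutrophils also make platelet-activating factor (PAF), an ether phospholipid that primes neutrophils through its own receptor.

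The 8 genes do not form a sequence family, and the coding sequence around the catalytic residues shows how they differ. The stretches below were read from GENCODE M21 on GRCm38, 5′ to 3′ on the coding strand, and the capitals mark the codons of the catalytic motif. In the first 5 the motif holds the serine nucleophile between small residues, and in Lpcat2 it is the motif of acyltransferases that opens with histidine and ends with aspartate. Each motif was found once in the coding sequence of its gene.
Pla1a (exon 4 of 11, chr16:38414815-38414853, minus strand): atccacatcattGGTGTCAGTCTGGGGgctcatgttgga
Pla2g6 (exon 11 of 17, chr15:79299048-79299086, minus strand): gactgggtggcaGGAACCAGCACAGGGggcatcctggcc
Pla2g7 (exon 9 of 12, chr17:43604578-43604616, plus strand): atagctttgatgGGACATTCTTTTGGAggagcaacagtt
Pla2g15 (exon 5 of 6, chr8:106161155-106161193, plus strand): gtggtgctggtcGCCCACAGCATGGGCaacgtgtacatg
Pla2g4a (exons 8 and 9 of 18, chr1:149872754-149880021, minus strand): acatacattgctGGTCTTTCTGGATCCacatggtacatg
Lpcat2 (exon 3 of 14, chr8:92869760-92869801, plus strand): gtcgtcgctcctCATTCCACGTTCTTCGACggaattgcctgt
Pla1a, Pla2g6 and Pla2g7 share the pattern of glycine, any residue, serine, any residue, glycine, spelled with different codons. In Pla2g15 the first glycine is replaced by alanine, and in Pla2g4a the motif lies in exon 8, with an intron within the bases shown after it. Plbd1 has no match to the pattern of Pla1a, and Plbd2 has 2 matches, none of which is taken here as a catalytic site, since phospholipase B-like proteins belong to the N-terminal nucleophile hydrolases.

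Deposited read counts totalled 42091346 to 56238941 per library. Of the 15947 genes with enough reads to be tested, edgeR's quasi-likelihood test called 1618 higher and 2278 lower with PGE2 at an adjusted p of 0.05. Higher genes made up 41.5% of calls, 55.5% with no TMM factor on the library totals, and 30.0% on log2(TPM + 1). Neutrophil markers were abundant in both groups, with summed levels of 72670 to 88200 CPM (read counts scaled to library size with TMM) over 12 genes. S100a9, which encodes a calcium-binding protein of neutrophils, averaged 36040 CPM in vehicle and 42110 CPM with PGE2 and was not called. Of the 12, 7 were called lower and none higher, where 14.3% of all tested genes were called lower. The median log2 fold change of the 12 was -0.85, so the sum does not show the fall of most of them. Hemoglobin genes took 1.57 to 4.87% of the reads in the PGE2 libraries, most in replicate 2, and 0.413 to 1.86% in the vehicle libraries. In these bulk libraries, fewer cells of a type and less RNA per cell cannot be told apart.

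The levels of the 8 genes per transcript length, in the authors' TPM (read counts scaled by transcript length and library), formed a high and a low set. In vehicle, Plbd1 stood highest at 448 ± 101 TPM (SD, n = 3, as throughout), Pla2g7 followed at 326 ± 38.5 TPM and Lpcat2 at 233 ± 9.93 TPM. The libraries of Plbd1 and Pla2g7 overlapped, and those of Pla2g7 and Lpcat2 did not. Far below them, Pla2g4a was at 11.4 ± 2.03 TPM, Pla2g15 at 8.04 ± 0.601, Pla2g6 at 6.90 ± 0.572 and Plbd2 at 6.48 ± 0.203. Pla2g4a lay clear of Pla2g15, while Pla2g15, Pla2g6 and Plbd2 overlapped in turn. Pla1a came last at 0.615 ± 0.294 TPM.

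With PGE2 the order changed. Pla1a, last of the 8 in vehicle, held rank 4 at 42.8 ± 9.50 TPM, above every library of Pla2g15, Plbd2, Pla2g4a and Pla2g6. Plbd1 at 185 ± 58.8, Lpcat2 at 163 ± 9.64 and Pla2g7 at 139 ± 39.2 TPM overlapped in the order they stood. Pla2g4a, at rank 4 in vehicle, was at rank 7 with 6.38 ± 0.373 TPM and overlapped its neighbours Plbd2 and Pla2g6. The 8 genes together summed to 990.3 to 1106 TPM in the vehicle libraries and 498 to 665 TPM in the PGE2 libraries. Pla1a took 0.0281, 0.0621 and 0.0906% of that sum in vehicle replicates 1, 2 and 3 and 4.81, 9.99 and 9.26% in PGE2 replicates 1, 2 and 3.

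**Figure D1:**
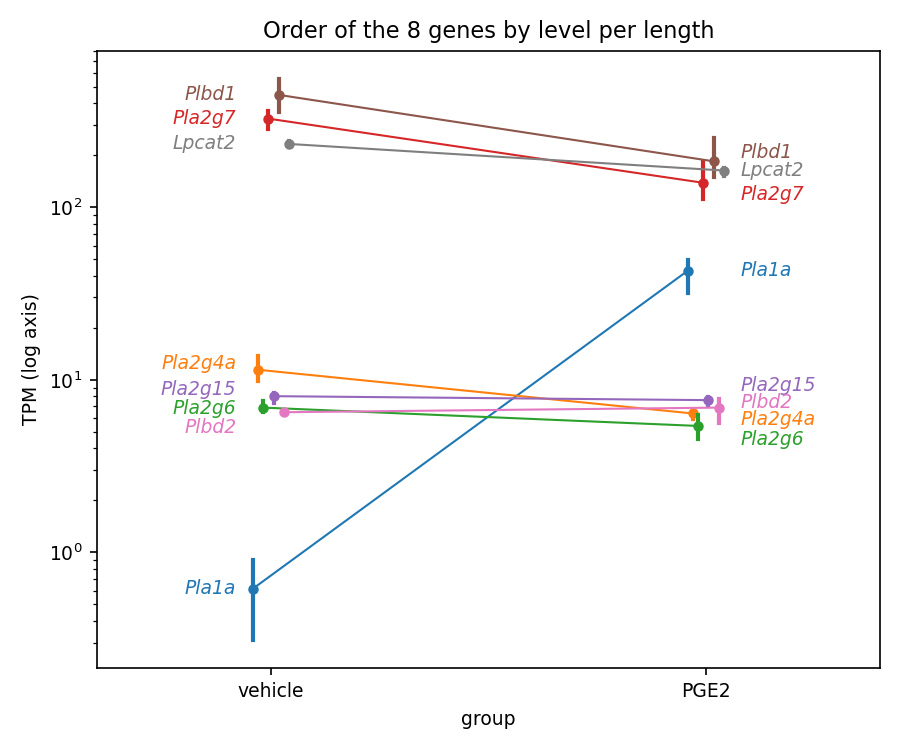
Level of the 8 genes per transcript length (TPM, log axis) in vehicle and PGE2; points are means over 3 libraries, joined by lines, and vertical bars run from the lowest to the highest library. Pla1a goes from 0.615 to 42.8 TPM and from rank 8 to rank 4, while Plbd1, Pla2g7 and Lpcat2 stay the 3 highest.

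Pla1a encodes a secreted phospholipase A1 that acts on phosphatidylserine and yields lysophosphatidylserine. The gene lies on chromosome 16 at 38396117 to 38433191 (mm10, minus strand) and overlaps no other RefSeq gene. It had 15, 31 and 54 reads in vehicle replicates 1, 2 and 3, and 1804, 3240 and 3216 reads in PGE2 replicates 1, 2 and 3. In CPM these were 0.327, 0.773 and 1.04 in vehicle and 35.7, 62.0 and 53.0 with PGE2. Every PGE2 library was far above every vehicle library, and vehicle replicate 1 and PGE2 replicate 1 were the lowest of their groups. The log2 fold change was 6.12 ± 0.38 (SE), or 69.4-fold, and PGE2 against vehicle of the same replicate number gave ratios of 109, 80.2 and 50.7. Leaving out single libraries gave log2 fold changes from 5.78 to 6.53.

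Markers of B lineage and erythroid cells are given beside Pla1a. B lineage markers, 8 genes, summed to 393 to 524 CPM in vehicle and 580 to 842 CPM with PGE2. Of the 8, 3 were called higher, against 10.1% of all tested genes. Erythroid markers, 9 genes, summed to 4419 to 20090 CPM and 15640 to 51440 CPM, with none of the 8 tested called. Their part in the level of Pla1a was not tested.

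Among the 4 phospholipases A2 of the 8 genes, Pla2g7 had the largest log2 fold change. It encodes the plasma type of PAF acetylhydrolase, a secreted enzyme that inactivates PAF, and lies on chromosome 17 at 43567994 to 43612202. Its CPM was 341, 441 and 449 in vehicle replicates 1, 2 and 3 and 210, 175 and 133 in PGE2 replicates 1, 2 and 3. The groups did not overlap, and replicate 1 was the lowest of the vehicle libraries and the highest of the PGE2 libraries. The log2 fold change was -1.25 ± 0.18, or 0.421 of the vehicle level, and it ran from -1.41 to -1.08 with single libraries left out. An antisense gene overlaps Pla2g7, with at most 52 reads in a library against at least 8083 for Pla2g7.

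Pla2g4a encodes cytosolic phospholipase A2 alpha, the calcium-dependent enzyme that releases arachidonic acid for prostaglandins and leukotrienes. It lies on chromosome 1 at 149829618 to 149961290 and overlaps no other gene. Its CPM was 20.8, 18.6 and 16.3 in vehicle and 11.03, 11.7 and 11.02 with PGE2. The PGE2 libraries were close together and all below the lowest vehicle library. The log2 fold change was -0.72 ± 0.12, or 0.606 of the vehicle level.

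Pla2g6 and Pla2g15 differed less. Pla2g6, the calcium-independent phospholipase A2 beta (chromosome 15, 79286228 to 79328385), was at 13.6, 13.8 and 13.3 CPM in vehicle and 12.6, 10.7 and 10.8 CPM with PGE2. Its groups did not overlap, but its log2 fold change of -0.26 ± 0.12 did not pass the test across all genes. Pla2g15, the lysosomal phospholipase A2 (chromosome 8, 106150354 to 106164718), was at 12.3, 12.1 and 13.4 CPM in vehicle and 12.6, 13.3 and 12.7 CPM with PGE2. Its groups overlapped, with a log2 fold change of 0.03 ± 0.11 on counts and -0.07 on log2(TPM + 1). Of the 8 genes, Pla2g15 was nearest to its vehicle level.

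The related phospholipase B-like genes Plbd1 and Plbd2 went apart. Plbd1, whose product was described in neutrophils as an enzyme that removes fatty acids from phospholipids, lies on chromosome 6 at 136612071 to 136662303. Its CPM was 579, 513 and 406 in vehicle and 292, 206 and 171 with PGE2. Every PGE2 library was below the lowest vehicle library, and replicate 1 was the highest in each group. The log2 fold change was -1.16 ± 0.21, and it ran from -1.40 to -0.99 with single libraries left out. Plbd2, which encodes a lysosomal protein, lies on chromosome 5 at 120483893 to 120503623. It was at 12.9, 13.8 and 13.4 CPM in vehicle and 15.5, 13.9 and 16.3 CPM with PGE2. Its PGE2 libraries were all higher, PGE2 replicate 2 by little, and its log2 fold change of 0.19 ± 0.11 did not pass the test across all genes.

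Monocytes and macrophages also express Pla2g7 and Plbd1, and the values of their markers stand beside these genes. Summed over 14 monocyte and macrophage markers, vehicle replicates 1, 2 and 3 held 1381, 1219 and 1057 CPM and PGE2 replicates 1, 2 and 3 held 1034, 781 and 677 CPM. Every PGE2 library was below every vehicle library in this sum. Among the vehicle libraries the sum was highest in replicate 1, where Pla2g7 was lowest and Plbd1 highest. The largest part of this sum in each library was Ly6c2, at 766, 557 and 481 CPM in vehicle replicates 1, 2 and 3. None of the 14 was called higher and 3 were called lower, where 14.3% of all tested genes were called lower. These 3 were Csf1r, the receptor gene for macrophage colony-stimulating factor, Adgre1, which encodes F4/80, and Vcam1. In vehicle replicates 1, 2 and 3, Csf1r was at 280, 318 and 256 CPM and Adgre1 at 84.4, 138 and 136 CPM. Vcam1 was at 25.95, 19.02 and 20.55 CPM there. Adgre1 was thus lowest in vehicle replicate 1, as for Pla2g7, and Vcam1 highest, as for Plbd1. With PGE2 all 3 were highest in replicate 1 and lowest in replicate 3, as were Pla2g7 and Plbd1. The macrophage marker C1qa, not called, was near 0, at means of 0.446 CPM in vehicle and 0.965 CPM with PGE2. Of 12 neutrophil markers 7 were called lower, against the same 14.3%. Among them were the receptor genes Csf3r, with a log2 fold change of -0.93 ± 0.11, and Cxcr2, with -0.35 ± 0.10. Eosinophil markers, 4 genes, summed to 115 to 227 CPM in vehicle and 56.6 to 88.5 CPM with PGE2. Of the 4, 3 were called lower, again against 14.3%. The part of these cells in the levels of Pla2g7 and Plbd1 was not tested.

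Lpcat2 encodes the acyltransferase that, in activated leukocytes, acetylates lyso-PAF to PAF and also returns fatty acids to lysophosphatidylcholine. It lies on chromosome 8 at 92855313 to 92919279. Its CPM was 282, 328 and 355 in vehicle and 246, 250 and 238 with PGE2. The PGE2 libraries differed little among themselves and lay below all vehicle libraries. The log2 fold change was -0.39 ± 0.10, or 0.762 of the vehicle level. That difference passed across all genes with 6 libraries. It did not pass without PGE2 replicate 2 (-0.41), PGE2 replicate 3 (-0.365), vehicle replicate 2 (-0.38) or vehicle replicate 3 (-0.315). Capns2, a gene inside Lpcat2 on the same strand, had 282 to 383 reads per library against at least 12437 for Lpcat2.

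**Figure D2:**
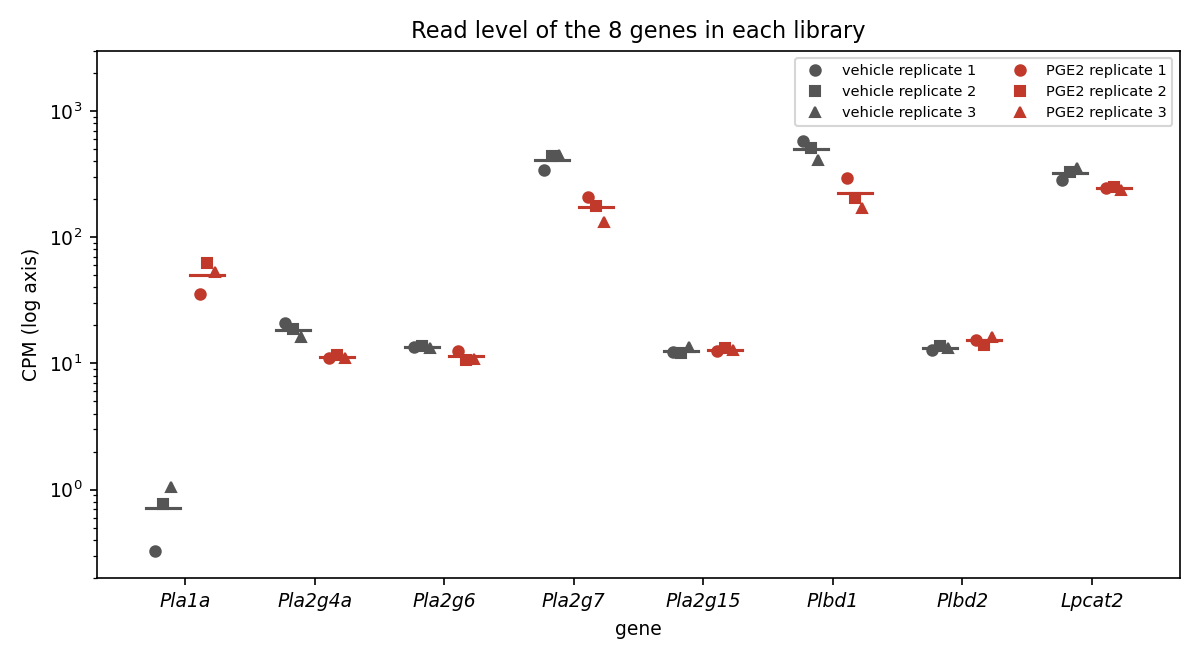
CPM of the 8 genes (log axis) in the 3 vehicle libraries (grey) and the 3 PGE2 libraries (red); symbols give the replicate number and horizontal lines the group means. Pla1a goes from a mean of 0.715 to 50.2 CPM, and only Pla2g15 has groups that overlap.

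In all, 1 of the 8 genes was called higher and 4 were called lower, where 24.4% of all tested genes were called in either direction, 10.1% higher and 14.3% lower. Groups did not overlap in 7 of the 8, against 42.3% of all tested genes. The PGE2 libraries were all above in 2 of the 8 and all below in 5, against 20.5% and 21.8% of all tested genes. Since the genes were chosen with this contrast known, nothing is read from these counts. The median log2 fold change of the 8 was -0.32, and that of all tested genes was 0.04. A fit that blocks on replicate number also called 1 higher and 4 lower.

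**Figure D3:**
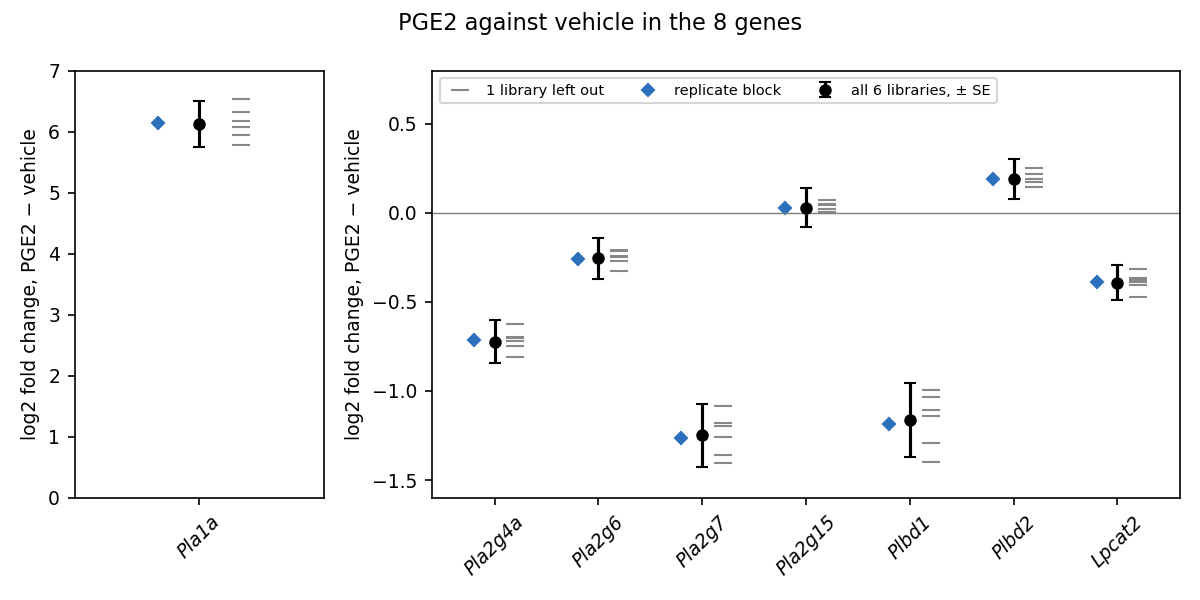
Log2 fold change of PGE2 against vehicle for Pla1a (left axis) and the other 7 genes (right axis, a different scale); black points with bars are the values with SE over 6 libraries, blue diamonds the fit that blocks on replicate number, and grey dashes the values with 1 library left out. Pla2g7 and Plbd1 lie near -1.2 and keep their sign in every fit drawn, as do the other genes.

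With earlier results of these data known, 130 further genes of phospholipid and lysophospholipid turnover were listed around these 8, in 12 groups by role. Of these, 129 were in the table and 86 were tested. Of the 86, 4 rose and 19 fell, which is 26.7% called, near the 24.4% of all tested genes. Each list below had 1 to 15 genes tested, and its counts stand against 10.1% higher and 14.3% lower over all tested genes. With so few genes, nothing is read from the count of a single list. Their median log2 fold change was -0.11, against 0.04 for all tested genes. With the replicate block 12 rose, and without PGE2 replicate 1, 9 rose. Without PGE2 replicate 2, and on TPM, 2 rose.

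Other phospholipases A had few calls. Of 11 relatives of Pla1a among the lipases and phospholipases A1, 6 were tested, and only Lpl, the lipoprotein lipase gene, changed, from 3.79 ± 0.335 to 1.44 ± 0.180 CPM (edgeR adjusted p = 0.00265). Its relatives Liph and Lipi, which encode phospholipases A1 that act on phosphatidic acid, had too few reads to be tested. The most abundant gene of that list, Sec23ip, was at 52.2 ± 3.08 CPM in vehicle and 52.5 ± 3.11 CPM with PGE2. Of the 5 other cytosolic phospholipase A2 genes, Pla2g4c alone was tested, at 0.538 ± 0.130 and 0.167 ± 0.168 CPM in vehicle and PGE2, and was not called. The list of secreted phospholipases A2, which also holds their receptor gene Pla2r1 and the pseudogene Pla2g2a, had 2 of 12 genes tested and none called. The most abundant, Pla2g12a, was at 3.39 ± 1.30 and 5.24 ± 0.320 CPM (edgeR adjusted p = 0.127, and 0.0171 without vehicle replicate 3, 0.0171 to 0.316 over the alternatives).

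Patatin-like phospholipases and other lipid hydrolases were lower where they changed. Pnpla7, which encodes a lysophospholipase, went from 326 ± 21.02 to 185 ± 5.43 CPM (log2 fold change -0.81 ± 0.08) and was the 1 called among 5 tested patatin-like genes. Without vehicle replicate 3 and by DESeq2's Wald test there were 2, with Pnpla8 at an adjusted p of 0.042 and 0.0488, and with the replicate block 3, with Pnpla2 and Pnpla8. Pnpla2, the adipose triglyceride lipase gene, was at 296 ± 42.5 and 241 ± 26.9 CPM. Of 8 tested PLAAT, ABHD and phospholipase B genes, Abhd2 and Abhd5 fell by 1.32 ± 0.10 and 0.73 ± 0.13 on the log2 scale. Abhd5 encodes the activator of adipose triglyceride lipase. Plaat3, which did not pass, was called higher with the block and without PGE2 replicate 1 (adjusted p = 0.0286 and 0.022). None of the 4 intracellular PAF acetylhydrolase genes was called, and the most abundant, Pafah1b1, was at 252 ± 9.33 and 273 ± 10.9 CPM. In that list Pafah1b3 was called higher with the block, without PGE2 replicate 1 and by DESeq2's Wald test (adjusted p = 0.00402, 0.0498 and 0.046).

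The acyltransferases moved in both directions. Of 15 tested, 4 fell and 2 rose, or 40% called, against 24.4% of all tested genes. Lpcat4, a relative of Lpcat2, went from 59.95 ± 4.41 to 33.2 ± 4.46 CPM (log2 fold change -0.85 ± 0.12). Agpat2, which makes phosphatidic acid from lysophosphatidic acid, and Lpgat1 had log2 fold changes of -0.75 ± 0.11 and -0.78 ± 0.12. Mboat7, which puts arachidonic acid into lysophosphatidylinositol, was at -0.37 ± 0.09 (edgeR adjusted p = 0.0195). Leaving out PGE2 replicate 3 gave an adjusted p of 0.0634, and leaving out vehicle replicates 2 and 3 in turn gave 0.0701 and 0.0702. Over the alternatives its adjusted p ran from 0.00124 to 0.0702.

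Gpat4 and Gpat3, which start glycerolipid synthesis from glycerol phosphate, were the 2 that rose, by 0.47 ± 0.11 and 0.35 ± 0.10. The edgeR adjusted p of Gpat4 was 0.0168, against 0.0583 without PGE2 replicate 2 and 0.0599 without vehicle replicate 3 (all alternatives, 0.00211 to 0.123). That of Gpat3 was 0.0361, and 0.0556, 0.108, 0.0801, 0.0674 and 0.102 without PGE2 replicates 1 and 2 and vehicle replicates 1, 2 and 3 (0.00731 to 0.146). On TPM neither was called. With the block 4 acyltransferase genes rose, with Gpam and Agpat4 added. Long-chain acyl-CoA synthetases, which prepare fatty acids for these enzymes, fell in 2 of 4 tested, against 14.3% of all tested genes. Acsl1 went from 175 ± 32.6 to 88.5 ± 8.83 CPM and Acsl5 from 109 ± 0.957 to 80.3 ± 2.07 CPM, while Acsl4, which prefers arachidonic acid, was at 57.8 ± 5.98 and 57.3 ± 7.48 CPM and was not called. Acsl3 was called higher with the block (adjusted p = 0.0212).

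The list of lysophospholipases and lysophospholipid phosphatases, which does not hold Pnpla7, had 2 calls. Of 9 tested, Lypla1, a gene for acyl-protein thioesterase and lysophospholipase activity, and Gdpd3, a lysophospholipase D gene, were called lower, at -0.30 ± 0.09 and -0.63 ± 0.19. Their edgeR adjusted p was 0.0389 and 0.0418. Neither was called without PGE2 replicate 2, PGE2 replicate 3 or any single vehicle library, with Lypla1 at 0.0804 to 0.121 and Gdpd3 at 0.0712 to 0.133 there. Over the alternatives these ran from 0.0144 to 0.137 and from 0.00246 to 0.133. Lypla2, the most abundant, was at 101 ± 16.4 and 89.4 ± 4.30 CPM. Enpp2, which encodes the autotaxin that makes lysophosphatidic acid, had too few reads to be tested.

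Of 14 tested receptors for lysophospholipids and PAF, 2 rose and 3 fell, or 35.7% called, against 24.4% of all tested genes. With the block or without PGE2 replicate 1, 5 rose. Gpr132, the gene of a receptor for lysophospholipids and oxidised fatty acids, went from 38.5 ± 10.1 to 85.9 ± 10.3 CPM (log2 fold change 1.16 ± 0.19). Lpar6, a lysophosphatidic acid receptor, went from 27.3 ± 1.73 to 48.7 ± 1.01 CPM. The sphingosine 1-phosphate receptors S1pr4 and S1pr2 fell by 0.93 ± 0.09 and 0.96 ± 0.13 on the log2 scale. S1pr1, another of these receptors, went the other way, from 46.0 ± 11.6 to 64.4 ± 16.2 CPM. Its log2 fold change of 0.49 ± 0.23 was not called (edgeR adjusted p = 0.172). It was called higher with the block and without PGE2 replicate 1 (adjusted p = 0.00101 and 0.0449). Ptafr, the PAF receptor, went from 197 ± 10.9 to 139 ± 4.46 CPM (log2 fold change -0.50 ± 0.08).

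The 4 receptors of lysophosphatidylserine, the product of Pla1a, were looked at after their values were seen. Gpr34 was at 2.34 ± 0.940 and 2.27 ± 0.719 CPM in vehicle and PGE2, P2ry10b at 4.56 ± 0.979 and 4.37 ± 0.674, and Gpr174 at 7.13 ± 2.07 and 6.56 ± 1.95. None of these 3 was called under any alternative in which it was tested; Gpr34 was too low for the TPM fits. P2ry10 was at 25.4, 45.1 and 44.8 CPM in vehicle replicates 1, 2 and 3 and 46.8, 79.6 and 76.2 CPM with PGE2. All PGE2 libraries were above all vehicle libraries, and replicate 1 was the lowest in each group. Its log2 fold change of 0.81 ± 0.26 missed the threshold (edgeR adjusted p = 0.0556), and was called with the replicate block (0.82, adjusted p = 0.000102) and without PGE2 replicate 1 (1.03, adjusted p = 0.0183). It was also called by DESeq2's Wald test, with library totals and with a filter of 50 counts, and over the alternatives its adjusted p ran from 0.000102 to 0.152. Gpr55, a lysophosphatidylinositol receptor with 1.57 ± 1.39 and 6.73 ± 4.32 CPM, was likewise at an adjusted p of 0.0543. That p was 0.000933 with the block, 0.0398 without PGE2 replicate 1, 0.0148 without vehicle replicate 3 and 0.00323 by DESeq2's Wald test (0.000933 to 0.177 over the alternatives). T and NK cell markers, 6 genes, summed to 36.3 to 79.5 CPM in vehicle and 36.7 to 96.8 CPM with PGE2, lowest in replicate 1 of each group as for P2ry10, and their part was not tested.

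Phospholipases C cut at the phosphate and yield diacylglycerol and inositol phosphates. Their list also holds phospholipase C-like genes, Plcl2 among them, which are not taken here as active enzymes. Of its 12 tested genes, 4 fell and none rose, or 33.3% called, against 24.4% of all tested genes. Plcg2, which acts below Fc receptors and integrins, went from 315 ± 30.3 to 136 ± 24.0 CPM (log2 fold change -1.21 ± 0.14). Plcb2, which acts below chemoattractant receptors in neutrophils, went from 222 ± 34.7 to 96.3 ± 14.7 CPM (log2 fold change -1.20 ± 0.15). Plcl2 and Plcb3 were at -0.52 ± 0.09 and -0.44 ± 0.09, and Plcb3, named since it completes the 4, was at an edgeR adjusted p of 0.0103 and of 0.0521 without vehicle replicate 2 (0.000255 to 0.0521 over the alternatives). Of 6 tested genes on the phospholipase D list none was called. The most abundant, Pld4, was at 56.3 ± 3.87 and 59.9 ± 0.0789 CPM, and its product is not taken here as an active phospholipase D. With the block Pld1 was called lower, at -0.66.

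**Figure D4:**
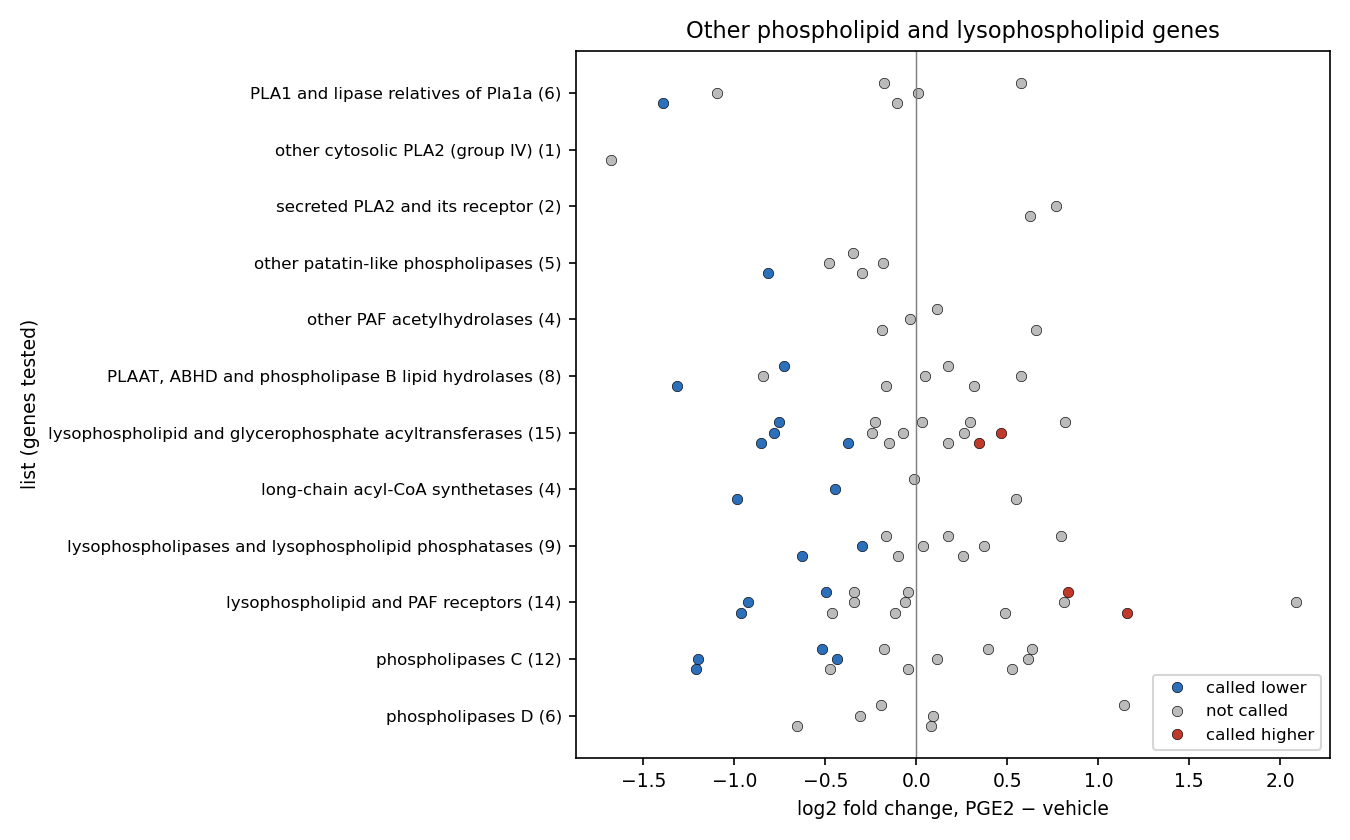
Log2 fold change of PGE2 against vehicle for the 86 tested genes of the 12 lists, 1 point per gene, with the number tested in parentheses; red and blue points were called higher and lower by edgeR and grey points were not called, and points are staggered vertically only to separate them. The phospholipase C list has 4 blue points and no red one, and the receptor list has 2 red and 3 blue. Over all tested genes, 10.1% were called higher and 14.3% lower.

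The genes closest in pattern to each of the 8 were sought among 10337 genes with a mean of at least 100 reads. Genes with a provisional symbol, such as Gm or Rik, were not among these. Closeness was the Euclidean distance between log2 CPM profiles over the 6 libraries, each centred on its mean. With 2 groups of 3 libraries, such a distance mostly reflects the size of the PGE2 difference. Closest to Pla1a were Dlx1, Fam71f2, Hilpda, Vgf and Mpzl2, at distances of 1.51 to 2.28. The minimum of 100 reads is a mean over both groups, so a gene low in vehicle can reach it through the PGE2 libraries. In vehicle, Vgf was at 0 CPM in every library, and Fam71f2, Dlx1 and Hilpda at most at 0.135, 0.698 and 1.27 CPM. Each of these reached the minimum in that way, so their closeness is a description only. Dlx1, a homeobox gene, was at 0.24, 0.698 and 0.406 CPM in vehicle and 14.9, 15.5 and 29.6 CPM with PGE2. Hilpda, a gene of lipid droplets, was at 0.48, 1.27 and 0.793 CPM in vehicle and 10.8, 32.2 and 33.5 CPM with PGE2, lowest in replicate 1 of each group as for Pla1a. Closest to Pla2g7 were Myadm, Cyb5r1 and Lilra6, at 0.175 to 0.29, and closest to Plbd1 were Cep85l, Mctp1 and Hk2, at 0.162 to 0.201. Closest to Pla2g4a were Gnptab, Kat6b and Otud3, at 0.108 to 0.132, and closest to Lpcat2 were Cdc42se1, Leprotl1 and Cd300lb, at 0.06 to 0.067. The distances of the genes closest to Pla1a were larger than those for the other 4 genes given here.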

How the data were processed

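The series holds 6 RNA-seq libraries, 3 per group, grouped and numbered by their titles. The submitters' processing notes name StringTie 2.1.3b, RSEM, STAR, Bowtie2 and DESeq2 and the build mm10. The tool behind each value and the strand setting of the counting are not stated there. The deposited series table gives the authors' estimated counts for each gene, used as unnormalised counts although its name calls them normalized, since their totals differ. The deposited table of each library gives TPM. The series table also held 18 columns of other libraries, which were not used. Gene positions in the files were those of RefSeq GRCm38.p6 for 96.3% of matched genes.

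Estimated counts were rounded. Genes with at least 10 counts in at least 3 libraries were tested with edgeR 4.0.16 (R 4.3.3), quasi-likelihood, TMM scaling, two-sided, Benjamini-Hochberg adjustment over all tested genes, threshold 0.05. Log2 fold changes carry a standard error derived from that fit, the absolute log2 fold change divided by the square root of its F statistic. The biological coefficient of variation was 22.4%. On counts simulated for this comparison, with 15492 genes tested and 200 changed in 3 sizes, the test found 23.9% of 1.5-fold, 50.7% of 2-fold and 72.7% of 4-fold changes, and 4.85% of its calls were false. The 8 genes, the lists and the tests were chosen with earlier results of these data known. Named from each list were up to 3 called genes with the smallest adjusted p and up to 2 with the opposite call. The gene of highest TPM in each list was named too. Liph, Lipi, Pnpla8, Plaat3, Pafah1b3, Gpam, Agpat4, Acsl3 and Acsl4 were named outside this rule, after their values were seen. So were Enpp2, Pld1, Plcb3, Gpr55, S1pr1 and the lysophosphatidylserine receptors. Coding sequences came from GENCODE M21.

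Same-numbered libraries of the 2 groups correlated at 0.258, 0.174 and 0.187 in their deviations from the group means, and differently numbered ones at -0.166 to 0.002. The meaning of a number is not in the labels, so the main fit did not pair the libraries. Its standard errors and adjusted p-values ignore any pairing. The numbers enter only the replicate block, which is an alternative, and the ratios within a number. Replicates of a group correlated at 0.961 to 0.981 and differed by more than sampling noise. Alternatives were DESeq2 1.42.0 size factors, library totals, DESeq2's Wald test, no filter, a filter of 50 counts, log2(TPM + 1) and log2(TPM + 0.1) with limma 3.58.1 (TPM of 1 or more in 3 libraries), the replicate block and each library left out.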

Additional observations from a re-analysis of the deposited data

How the results depend on the processing

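The 8 genes kept the sign of their log2 fold changes under all 14 alternatives, except Pla2g15, which was at 0.03 on counts and -0.07 on TPM with either pseudocount. The 5 calls among them held under every alternative but those that leave out a library, where Lpcat2 was lost 4 times. Pla1a was at 4.75 on the log2(TPM + 1) scale, which understates the change of a low gene, and at 5.97 on log2(TPM + 0.1). The median log2 fold change of all genes was 0.04 with TMM, 0.13 with library totals, -0.06 on log2(TPM + 1) and -0.08 on log2(TPM + 0.1). Over all genes, 2648 were higher with the replicate block, 966 and 953 on TPM with a pseudocount of 1 and 0.1, and 1005 to 1541 with a library left out, the fewest without vehicle replicate 2 and PGE2 replicate 2 (1063). Of the 130 listed genes, 7 were higher with library totals, 8 with DESeq2's Wald test, 12 with the replicate block, 2 with each TPM pseudocount and 2 to 9 with a library left out. The replicate block ended no call among the genes named. The causes of these changes were not tested. In the simulated data the test missed most 1.5-fold changes. Far fewer genes were changed there than the 3896 called in the data, and the adjustment depends on how many genes change. The share of 1.5-fold changes missed in the data therefore cannot be read from the simulation. Pla1a had few reads in vehicle, so its fold rests on 15 to 54 reads per library.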

Other observations

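PGE2 replicate 1 stood nearest to the vehicle libraries for several of these genes. Among the PGE2 libraries it had the lowest Pla1a (35.7 CPM, against 62.0 and 53.0) and the highest Pla2g7 (210, against 175 and 133), Plbd1 (292, against 206 and 171) and Pla2g6 (12.6, against 10.7 and 10.8). Vehicle replicate 1 had the lowest Pla1a and the highest Plbd1 of its group as well, so the ratio within number 1 was the largest of the 3 for Pla1a, at 109. For Plbd1 the ratios within numbers 1, 2 and 3 were 0.505, 0.401 and 0.422. For Pla2g7 they were 0.614, 0.398 and 0.296.

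The spread between replicates differed among the genes. Lpcat2 and Pla2g4a had coefficients of variation of 2.50% and 3.39% with PGE2 and of 11.5% and 12.1% in vehicle. Plbd1 and Pla2g7 were at 28.0% and 22.2% with PGE2 and 17.5% and 14.6% in vehicle. With 3 libraries per group, these differences in spread were not tested.

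Windows of 250 bases before a transcript start, as the RefSeq table (GRCm38.p6) places it, were searched on both strands for the cAMP response element TGACGTCA and its part TGACG. The table has entries for 6 of the 8 genes, and Pla1a and Plbd2 were not searched. The windows of Pla2g7 and Plbd1, and a second window of Pla2g4a, lie inside the extent of the gene given above. The full element was in none of the windows searched, against 1.55% of 32851 windows, and TGACG was in Pla2g6 only, against 17.8% of windows.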
